A study of Rattus norvegicus with 9 samples.

Results

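The hypoxia-inducible factor (HIF) pathway was followed through 10 genes in rat brain cortex: the oxygen-regulated subunits Hif1a, Epas1 and Hif3a, their partner Arnt, the prolyl hydroxylases Egln1, Egln2 and Egln3, the ubiquitin ligase component Vhl, and the target genes Vegfa and Adm. Their probes were chosen by gene symbol in the annotation of the array. A probe was found for 8 of the 10 genes, 1 each, among 13353 named probes and 22523 probes in all; Egln1 and Egln3 had none under these symbols and were not analysed here. The data are 9 one-colour Illumina bead arrays of cortical RNA, 3 for each simulated altitude: sea level (normoxic rats), 3 km and 7 km (hypoxic rats). The sources used here give neither strain, age, sex nor exposure time, and no label says that replicates are separate animals, so the p-values measure only the spread between samples.

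HIF is a dimer of an alpha subunit and ARNT. With oxygen present, EGLN enzymes hydroxylate prolines of the alpha subunit, VHL binds the hydroxylated protein, and the proteasome destroys it. In hypoxia the alpha subunit is spared, enters the nucleus and raises transcription of genes such as Vegfa, the angiogenic growth factor that astrocytes and neurons release in hypoxic brain, and Adm, which encodes the vasodilator peptide adrenomedullin. This control acts mainly on protein stability, which an expression array does not measure.

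On 8 of the arrays the median signal was 121.2 to 158.6, and 5881 to 6621 probes were detected, meaning a p-value under 0.05 for a signal above the negative control beads. Sea level replicate 3 had a median signal of 203.9 and 8170 such probes, and its Spearman correlation with the other arrays was 0.642 to 0.660, so results are given with all 9 arrays and with the other 8. Cortical markers were present, though not all: the neuronal genes Snap25, Syt1 and Nrgn, the astrocyte gene Gfap and the oligodendrocyte gene Cnp were detected on 9 of 9 arrays. The neuronal gene Camk2a was detected on only 3 of 9 arrays and the astrocyte gene Aqp4 on 1 of 9. The mean log2 signal over the oligodendrocyte markers, of which 5 of 6 have a probe, ranged between 9.76 and 9.98 at sea level, between 9.43 and 9.73 at 3 km, and between 8.73 and 9.28 at 7 km. Over 4 of 6 endothelial markers it was 8.45 to 8.85 at sea level, 8.82 to 9.39 at 3 km and 9.00 to 9.50 at 7 km. Over 5 of 6 neuronal markers the ranges were 10.58 to 10.73, 10.64 to 10.70 and 10.63 to 10.66, over 5 of 6 astrocyte markers 9.06 to 9.13, 9.05 to 9.19 and 9.22 to 9.28, and over 5 of 6 microglial markers 7.66 to 7.81, 7.79 to 7.85 and 7.72 to 7.81, each in the order sea level, 3 km and 7 km. In the same order they were 9.31 to 9.59, 9.38 to 9.45 and 9.40 to 9.61 over 5 of 6 red cell markers, and 7.40 to 8.11, 7.36 to 7.37 and 7.37 to 7.39 over the 6 choroid plexus markers, of which Ttr reached 11.77 on sea level replicate 3. The defining markers Mag of oligodendrocytes and Cx3cr1 of microglia were detected on 0 of 9 arrays. In bulk tissue, fewer cells of a type and less RNA per cell cannot be told apart.

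No member rose or fell past an adjusted limma p of 0.05 at either altitude. The pathway divided first by whether its messages could be seen. Egln2 and Vhl were detected on 9 of 9 arrays, Hif1a and Vegfa on 8 of 9, Epas1 and Adm on 1 of 9, and Hif3a and Arnt on 0 of 9. The 4 members detected on at least 3 arrays were tested among 6656 probes. At 7 km against sea level 0 of these 4 passed, where 0.12% of all tested probes did. At 3 km against sea level 0 of 4 passed, where 0% of all tested probes did, and at 7 km against 3 km 0 of 4 passed, where again 0% did. At an unadjusted limma p below 0.05 the members counted 0, 1 and 0 of 4 in these comparisons, against 11.4%, 8.07% and 2.7% of all tested probes. The members that were higher counted 2, 1 and 2 of 4, against 47.7%, 49.7% and 49.6% of all tested probes. Between 7 km and 3 km no member had groups that did not overlap, against 5.93% of all tested probes with 7 km higher and 7.71% with 7 km lower. Without sea level replicate 3, 0 of 4 passed in each comparison, against 0.308% of 6499 probes at 7 km and 0% at 3 km and between the altitudes. On these 8 arrays 1, 0 and 0 of 4 had an unadjusted limma p below 0.05, against 12.5%, 9.48% and 8.19% of all tested probes. The members that were higher counted 3, 2 and 2 of 4, against 50%, 51.4% and 49.6%. Groups that did not overlap, with the altitude higher and lower, were found for 1 and 1 member at 7 km (16.3% and 16.1% of all tested probes), 1 and 1 at 3 km (15% and 15.6%), and 0 and 0 between the altitudes (5.95% and 7.68%). The 2 comparisons with sea level share their 3 sea level arrays.

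**Figure D1:**
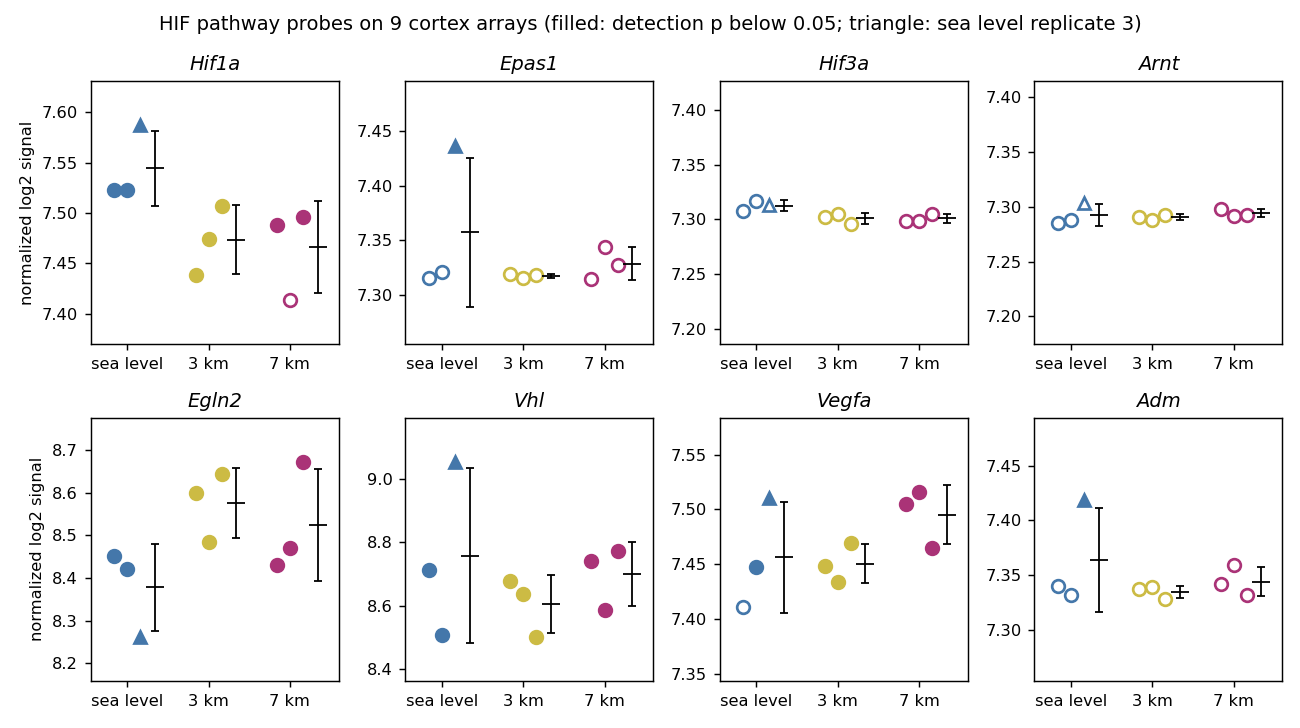
Normalized log2 signal of the 8 HIF pathway probes (y axis, a scale of its own in each panel) on the sea level, 3 km and 7 km arrays. Points are arrays, filled where the detection p-value was below 0.05, the triangle is sea level replicate 3, and the black bar is the group mean with its SD (3 arrays). All 3 sea level points of Hif1a lie above the points of both altitudes, and Egln2 at 3 km lies above sea level.

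**Figure D2:**
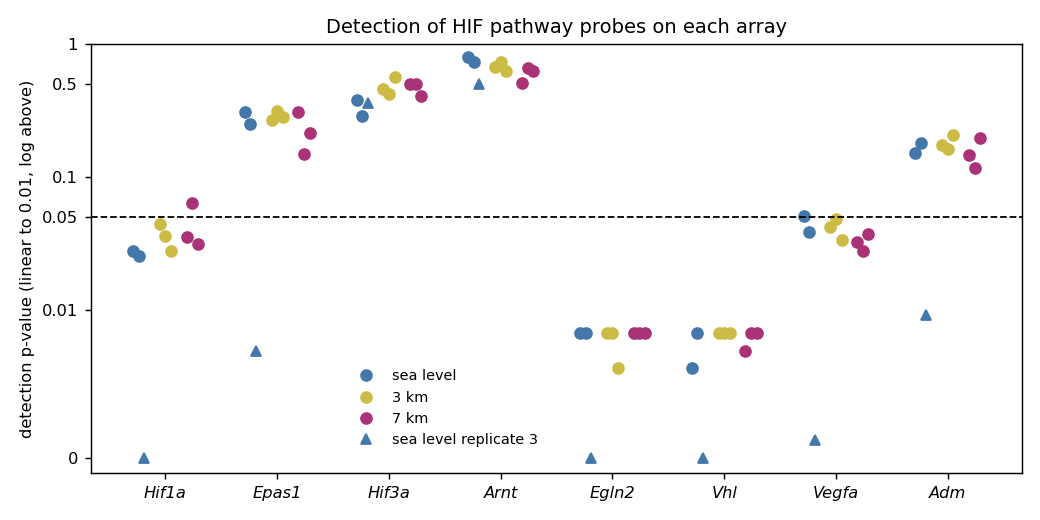
Detection p-value (y axis, linear up to 0.01 and logarithmic above) of each probe on each array, with the threshold of 0.05 as a dashed line. Egln2 and Vhl lie under it on 9 of 9 arrays, Hif3a and Arnt on none, and Epas1 and Adm only on sea level replicate 3.

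Among the HIF subunits only Hif1a, which encodes the alpha subunit of HIF-1, gave a usable signal. Its normalized log2 signal was 7.52, 7.52 and 7.59 on the sea level arrays, 7.44, 7.47 and 7.51 at 3 km, and 7.49, 7.41 and 7.50 at 7 km. Every array at 3 km and at 7 km was below every sea level array, while the altitudes overlapped each other. The lowest normalized value on any array was 7.26, so the whole span of Hif1a sat close to the floor of the scale. The mean was 7.47 ± 0.046 at 7 km and 7.54 ± 0.037 at sea level (SD, 3 arrays each), a log2 difference of -0.08 ± 0.037 (SE; 95% interval -0.17 to 0.01; limma adjusted p = 0.414). At 3 km the mean was 7.47 ± 0.034 and the difference from sea level -0.07 ± 0.037 (95% interval -0.16 to 0.02; limma adjusted p = 0.533). Groups that did not overlap, with the altitude lower, were found for 12.5% of all tested probes at 7 km and 10.7% at 3 km, so a gap of this kind was common. For 7 km against 3 km the difference was -0.01 ± 0.037 (95% interval -0.09 to 0.08, limma adjusted p = 1). That interval holds 0 as well as a further fall of the size measured from sea level.

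The raw signals of Hif1a did not separate the groups. These were 302.8, 257.1 and 286.1 at sea level, 282.3, 336.7 and 298.4 at 3 km, and 304.1, 212.3 and 287.9 at 7 km, so the groups overlapped before normalization. In the authors' deposited value table, which is background-subtracted and scaled, Hif1a was 161.2, 155.5 and 159.7 at sea level, 88.2, 123.9 and 153.1 at 3 km, and 136.0, 61.9 and 141.6 at 7 km. Every altitude array was again below the sea level arrays, but the share of all probes with such a gap in that table was not counted. Without sea level replicate 3 the difference was -0.04 ± 0.025 at 7 km (limma adjusted p = 0.559) and -0.04 ± 0.025 at 3 km (limma adjusted p = 0.715). When arrays were scaled to 1 median over all probes instead of being quantile normalized, the tested probes had a median difference of -0.64 at 7 km. Hif1a lay 0.06 above that median at 7 km, the opposite side, and level with that at 3 km (a difference of -0.004). With this scaling and without sea level replicate 3, the median of the tested probes was only -0.03 at 7 km and 0.03 at 3 km. Hif1a differed from these medians by -0.02 and -0.05.

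The start of Hif1a is shown because it holds, alone among the members, the core of the HIF binding sequence, ACGTG, within the 250 bases before the start in the RefSeq promoter table of build GRCr8. The first window of Vegfa is given for comparison. Both strands were searched, and capitals mark the motif on either strand; the first pair of matches in Hif1a overlap. The Hif1a stretch is chr6:98359648-98359897 (plus strand), with matches 229, 228 and 164 bases before the start, and the Vegfa stretch is chr9:22452604-22452853 (plus strand), with none.
Hif1a: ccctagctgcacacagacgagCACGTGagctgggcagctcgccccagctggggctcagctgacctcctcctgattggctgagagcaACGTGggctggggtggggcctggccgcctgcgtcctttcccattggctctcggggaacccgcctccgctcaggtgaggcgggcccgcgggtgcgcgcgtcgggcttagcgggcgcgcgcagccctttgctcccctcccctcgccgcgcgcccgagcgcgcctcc
Vegfa: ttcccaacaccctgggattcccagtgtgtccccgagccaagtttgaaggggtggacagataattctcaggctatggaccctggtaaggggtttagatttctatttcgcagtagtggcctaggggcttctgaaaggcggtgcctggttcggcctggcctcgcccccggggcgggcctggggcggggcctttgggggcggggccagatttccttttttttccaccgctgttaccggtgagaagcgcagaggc
Of the promoter windows of the 10 members, 1 of 12 held the motif on either strand, against 5547 of 33469 windows of all genes (16.6%). Among the wider lists described further on it was in 23 of 51 windows of HIF targets (45.1%), 4 of 15 windows of HIF regulators and partners (26.7%) and 0 of 14 windows of the VEGF and adrenomedullin axis. A match is a description of the letters only, and windows of this length leave out most regulatory sequence.

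Epas1, which encodes HIF-2 alpha, an alpha subunit known from endothelium and astrocytes, was above background on sea level replicate 3 alone. Its signals were 120.9, 114.0 and 233.9 at sea level, 146.6, 139.2 and 122.4 at 3 km, and 127.5, 149.8 and 131.8 at 7 km, and its detection p-value was 0.00727 on sea level replicate 3 and 0.149 to 0.312 on the other arrays. The high array is the one with the highest median signal of the series. Hif3a, an alpha subunit whose variants can act as inhibitors, had signals of 112.8, 110.7 and 197.8 at sea level, 125.7, 125.0 and 99.4 at 3 km, and 110.0, 105.7 and 109.2 at 7 km, with detection p-values of 0.288 to 0.561. Arnt, the constitutive partner of the alpha subunits, had signals of 91.1, 86.1 and 193.3 at sea level, 112.1, 103.8 and 96.8 at 3 km, and 109.4, 98.7 and 96.5 at 7 km, with detection p-values of 0.502 to 0.795. Neither Hif3a nor Arnt was above background on any array, and neither entered the test of detected probes. No fold is given for these 3 genes, and a change below the background of the array was not detectable.

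Of the oxygen sensors only Egln2, the prolyl hydroxylase PHD1, could be followed, and it was well above background on every array. Its normalized log2 signal was 8.45, 8.42 and 8.26 at sea level, 8.60, 8.48 and 8.64 at 3 km, and 8.43, 8.47 and 8.67 at 7 km. All 3 arrays at 3 km lay above all 3 at sea level, whereas the 7 km arrays overlapped both other groups. The mean was 8.58 ± 0.082 at 3 km and 8.38 ± 0.10 at sea level (SD, 3 arrays each), a log2 difference of 0.20 ± 0.082 (95% interval 0.01 to 0.39; limma adjusted p = 0.533). Groups that did not overlap, with 3 km higher, were found for 8.8% of all tested probes. At 7 km the mean was 8.52 ± 0.13 and the difference from sea level 0.15 ± 0.082 (95% interval -0.05 to 0.34; limma adjusted p = 0.419). The difference between 7 km and 3 km was -0.05 ± 0.082 (95% interval -0.24 to 0.14; limma adjusted p = 1). Sea level replicate 3 was the lowest array of Egln2, and without it the differences from sea level were 0.08 ± 0.079 at 7 km and 0.13 ± 0.079 at 3 km, and the 3 km arrays still lay above the other sea level arrays. With scaling to equal medians, Egln2 differed from the median difference of the tested probes by -0.30 at 7 km. At 3 km, where that median was -0.55, it differed by -0.06. These values were -0.03 and 0.24 without sea level replicate 3, so the side at 3 km turned with that array.

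Vhl, which encodes the subunit that recognises hydroxylated HIF alpha, was also detected on every array. Its normalized log2 signal was 8.71, 8.51 and 9.05 at sea level, 8.68, 8.64 and 8.50 at 3 km, and 8.74, 8.59 and 8.77 at 7 km. The 3 groups overlapped, and sea level replicate 3 was the highest array. The log2 difference was -0.06 ± 0.13 at 7 km (95% interval -0.37 to 0.25; limma adjusted p = 0.786) and -0.15 ± 0.13 at 3 km (95% interval -0.46 to 0.16; limma adjusted p = 0.554), both against sea level. Between 7 km and 3 km it was 0.09 ± 0.13 (95% interval -0.22 to 0.41; limma adjusted p = 1). Without sea level replicate 3 the value at 7 km changed sign, to 0.09 ± 0.089 (limma adjusted p = 0.714), and that at 3 km was -0.01 ± 0.089. With scaling to equal medians, Vhl differed from the median difference of the tested probes by -0.56 at 7 km and -0.42 at 3 km. Without sea level replicate 3 these values were -0.08 and 0.10.

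**Figure D3:**
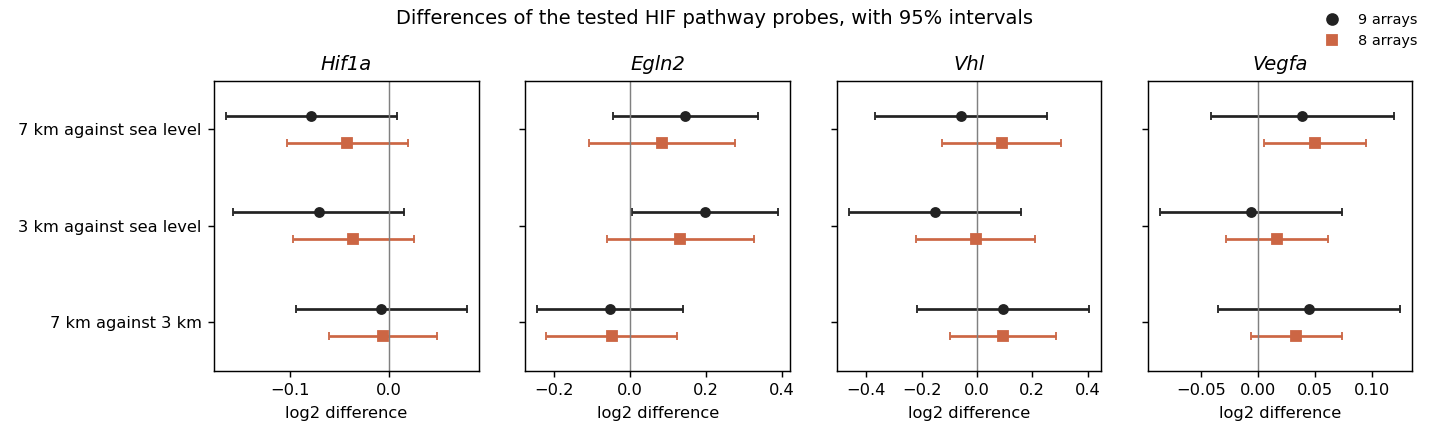
Log2 difference (x axis, a scale of its own in each panel) of the 4 tested members in the 3 comparisons, with 95% intervals from limma. Circles use all 9 arrays and squares the 8 arrays without sea level replicate 3. The intervals reach 0 or cross it except for Egln2 at 3 km with 9 arrays (0.01 to 0.39) and Vegfa at 7 km with 8 arrays (0.01 to 0.09), neither of which passed after adjustment.

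Of the target genes, Vegfa had its highest mean at 7 km, where the normalized values overlapped sea level. Its raw signals were 210.9, 208.1 and 258.0 at sea level, 292.8, 287.9 and 266.7 at 3 km, and 318.9, 292.5 and 261.5 at 7 km. Here every array of both altitudes lay above every sea level array. Raw signals are not adjusted for the brightness of each array, and the share of all probes with such a gap was not counted. Its detection p-value was 0.0509, 0.0388 and 0.00121 on sea level replicates 1, 2 and 3. It was 0.0339 to 0.0485 at 3 km and 0.0279 to 0.0376 at 7 km, so most arrays lay little past the threshold. Its normalized log2 signal was 7.41, 7.45 and 7.51 at sea level, 7.45, 7.43 and 7.47 at 3 km, and 7.51, 7.52 and 7.46 at 7 km. Like Hif1a, Vegfa sat close to the floor of the scale, whose lowest value was 7.26. Sea level replicate 3 lay among the 7 km arrays, and the other 2 sea level arrays lay below all 3 of them. The mean was 7.50 ± 0.027 at 7 km and 7.46 ± 0.050 at sea level (SD, 3 arrays each), a log2 difference of 0.04 ± 0.034 (95% interval -0.04 to 0.12; limma adjusted p = 0.512). At 3 km the mean was 7.45 ± 0.018, with a difference from sea level of -0.01 ± 0.034 (95% interval -0.09 to 0.07; limma adjusted p = 0.925). The difference between 7 km and 3 km was 0.05 ± 0.034 (95% interval -0.04 to 0.13; limma adjusted p = 1), and 7 km replicate 3 lay below 3 km replicate 3. In order of mean level, 7 km came first, then sea level and 3 km, and neighbours in this order did not differ past the test; the 3 km mean came above sea level on 8 arrays and in the authors' deposited values.

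Leaving out sea level replicate 3 narrowed the spread of Vegfa. All 3 arrays at 7 km then lay above both sea level arrays. The log2 difference was 0.05 ± 0.018 (95% interval 0.01 to 0.09; limma adjusted p = 0.354), and Vegfa was the member with an unadjusted p below 0.05. With these 8 arrays, 16.3% of all tested probes had 7 km arrays that lay above sea level without overlap. The difference at 3 km was 0.02 ± 0.018 (limma adjusted p = 0.827) and that between the altitudes 0.03 ± 0.017 (limma adjusted p = 0.656).

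The size of the Vegfa and Hif1a differences differed between ways of processing. With an offset of 50 in place of 16 after the normexp correction, the differences at 7 km against sea level were -0.07 for Hif1a and 0.03 for Vegfa. Without background correction, Vegfa differed by 0.18 ± 0.13 at 7 km against sea level (limma adjusted p = 0.438) and by 0.32 ± 0.10 on 8 arrays (limma adjusted p = 0.239). In the authors' deposited value table, Vegfa was 65.0, 94.0 and 111.6 at sea level, 97.3, 85.3 and 121.2 at 3 km, and 150.8, 151.9 and 114.3 at 7 km. Every 7 km array was above every sea level array there, but the share of all probes with such a gap in these values was not counted. The log2 difference in those values was 0.65 ± 0.25 at 7 km (limma adjusted p = 0.449), and 0.82 ± 0.22 on 8 arrays (limma adjusted p = 0.201). Hif1a differed by -0.30 ± 0.14 without background correction (limma adjusted p = 0.409) and by -0.58 ± 0.34 in the authors' values (limma adjusted p = 0.449). With scaling to equal medians, Vegfa lay above the median difference of the tested probes by 0.27 at 7 km and 0.17 at 3 km. Without sea level replicate 3 it lay above by 0.07 and 0.003.

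**Figure D4:**
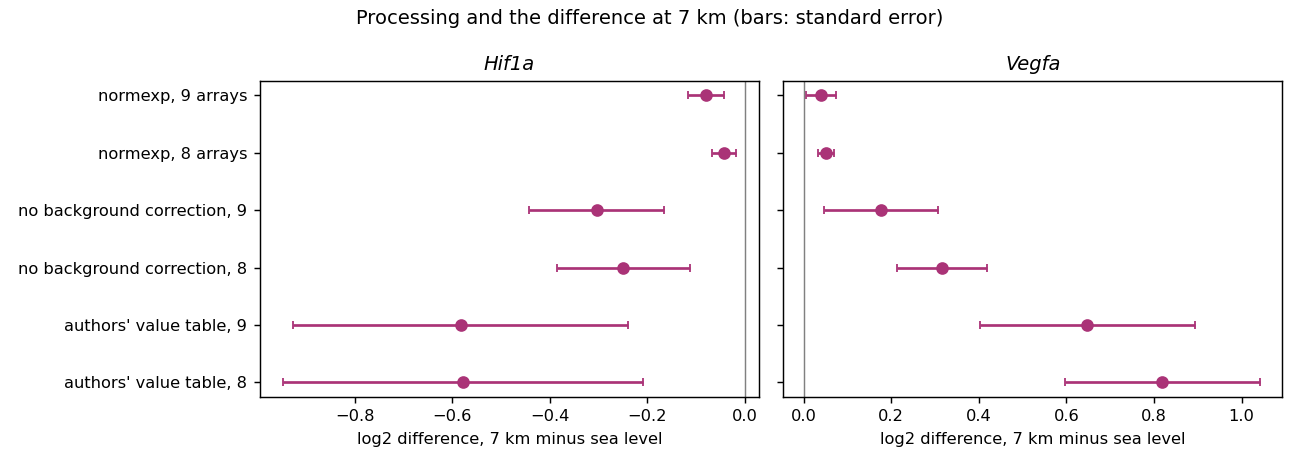
Log2 difference of Hif1a and Vegfa (x axis) at 7 km minus sea level under 3 ways of processing, each with 9 and with 8 arrays; the authors' value table differs from the others in scaling and in the probes tested as well as in background. Points are the differences and bars their standard errors. Hif1a keeps below 0, at -0.08 to -0.58 with 9 arrays, and Vegfa above 0, at 0.04 to 0.65 with 9 arrays, while the sizes and the errors grow together.

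Adm was above background on sea level replicate 3 alone, like Epas1. Its signals were 145.1, 123.4 and 229.1 at sea level, 167.9, 169.6 and 133.4 at 3 km, and 157.2, 163.6 and 136.9 at 7 km. Its detection p-value was 0.00970 on sea level replicate 3 and 0.118 to 0.208 on the other 8 arrays. The altitude arrays overlapped sea level, Adm did not enter the test of detected probes, and no fold is given.

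The wider pathway was described with 3 lists of genes outside the 10 members. Of 20 HIF regulators and partners, 16 have a probe and 11 were tested. None passed in any comparison; 5 were higher and 6 lower at 7 km against sea level, with a median log2 difference of 0.00, and all tested probes had a median of -0.01. At 3 km against sea level 6 were higher and 5 lower (median 0.02), and at 7 km against 3 km 5 and 6 (median 0.00). Of all tested probes 47.7%, 49.7% and 49.6% were higher in these 3 comparisons, and 0.12%, 0% and 0% passed. An unadjusted limma p below 0.05 was found for 2, 1 and 0 of the 11, against 11.4%, 8.07% and 2.7% of all tested probes. On 8 arrays 3, 4 and 5 of the 11 were higher, against 50%, 51.4% and 49.6%. The smallest p at both altitudes belonged to Rbx1, the RING subunit of the VHL ubiquitin ligase, with -0.65 ± 0.23 at 7 km (limma adjusted p = 0.407) and -0.59 ± 0.23 at 3 km (limma adjusted p = 0.533). Sea level replicate 3 lay at 10.07 for Rbx1, above the 9.26 and 9.12 of sea level replicates 1 and 2, and leaving it out gave -0.37 ± 0.076 and -0.31 ± 0.076. Os9, a lectin of the endoplasmic reticulum reported to bind HIF-1 alpha and its hydroxylases, had 0.25 ± 0.092 at 7 km (limma adjusted p = 0.414) and 0.18 ± 0.092 at 3 km (limma adjusted p = 0.533). Without sea level replicate 3, whose Os9 level of 7.76 was the lowest of the series, these were 0.12 ± 0.027 and 0.06 ± 0.027. Between 7 km and 3 km with 9 arrays, the smallest p-values were those of the kinase Mtor (-0.05 ± 0.043) and of Siah2, a ligase that degrades prolyl hydroxylases (0.03 ± 0.036), each with an adjusted limma p of 1. On 8 arrays Os9 had the smallest p of this list there, at 0.06 ± 0.0245 (limma adjusted p = 0.603).

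Receptors and ligands around Vegfa and Adm were mostly too dim. Of 15 genes of this axis, 12 have a probe and 4 were tested; none passed. At 7 km against sea level 2 were higher and 2 lower (median log2 difference 0.12), at 3 km against sea level 3 and 1 (0.21), and at 7 km against 3 km 2 and 2 (-0.06). The shares of all tested probes that were higher were 47.7%, 49.7% and 49.6%. An unadjusted limma p below 0.05 was found for 2, 2 and 0 of the 4, against 11.4%, 8.07% and 2.7% of all tested probes. On 8 arrays 3 were tested, of which 3, 2 and 1 were higher, against 50%, 51.4% and 49.6%. Ramp2, which turns the calcitonin receptor-like receptor into an adrenomedullin receptor and is enriched in endothelium, had 7.99, 7.99 and 8.12 at sea level, 8.36, 8.33 and 8.50 at 3 km, and 8.09, 8.37 and 8.34 at 7 km. All 3 km arrays lay above all sea level arrays, with a difference of 0.37 ± 0.086 (limma adjusted p = 0.301; 0.37 ± 0.086 on 8 arrays), and at 7 km it was 0.24 ± 0.086 (limma adjusted p = 0.414; 0.25 ± 0.086 on 8 arrays). Groups without overlap, with 3 km higher, were found for 8.8% of all tested probes. Of the 4 endothelial markers measured, Vwf and Podxl were higher on every 7 km array than on any sea level array, and Cldn5 overlapped. Itm2a was lower, at 7.48 to 7.56 against 7.96 to 8.06. Such gaps were found for 12.2% of all tested probes with 7 km higher and 12.5% with 7 km lower. The part of these markers in the level of Ramp2 was not tested. Nrp1, a co-receptor of VEGF on endothelium and axons, had a detectable signal on 3 of 3 arrays at sea level, but on 0 of 3 at 7 km and 0 of 3 at 3 km. It entered the test only through its sea level arrays, so a lower level at altitude was favoured by that choice. Its measured means were 7.38 and 7.38 against 7.54 at sea level. The measured differences were -0.16 ± 0.054 at 7 km (limma adjusted p = 0.397) and -0.16 ± 0.054 at 3 km (limma adjusted p = 0.533). As a bound on group means, it was at least 1.08-fold lower at both altitudes. That sea level mean includes 7.65 on replicate 3. Replicate 2, at 7.422, lay below the bounds of 7.434 at 7 km and 7.425 at 3 km, so the bound does not hold for that array. Without replicate 3 Nrp1 was detected on only 2 arrays and was not tested. Between 7 km and 3 km with 9 arrays, Ramp1, another partner of the receptor that Ramp2 joins, had -0.12 ± 0.070 and Ramp2 -0.13 ± 0.086, each with an adjusted limma p of 1. On 8 arrays Vegfd had the smallest p of this axis there, at 0.16 ± 0.063 (limma adjusted p = 0.575). With 9 arrays it had 0.17 ± 0.24.

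Of 55 HIF target genes 46 have a probe and 24 were tested, and 0 passed in any comparison. At 7 km against sea level 16 were higher and 8 lower, with a median log2 difference of 0.11, where 47.7% of all tested probes were higher, with a median of -0.01. The 7 km arrays lay wholly above sea level for 8 of the 24 and wholly below for 2, against 12.2% and 12.5% of all tested probes, and 6 of 24 had an unadjusted limma p below 0.05, against 11.4%. On the 8 arrays, 18 were higher and 6 lower, with a median of 0.10, where 50% of all tested probes were higher. There 14 of the 24 lay wholly above sea level and 3 wholly below, against 16.3% and 16.1% of all tested probes. An unadjusted limma p below 0.05 was found for 10 of 24, against 12.5%. At 3 km against sea level 13 were higher and 11 lower, with a median of 0.03, where 49.7% of all tested probes were higher. There the 3 km arrays lay wholly above sea level for 5 of the 24 and wholly below for 4, against 8.8% and 10.7%, and 4 of 24 had an unadjusted limma p below 0.05, against 8.07%. On 8 arrays 18 were higher and 6 lower at 3 km, where 51.4% of all tested probes were higher. Of the 24, 10 then lay wholly above sea level and 4 wholly below, against 15% and 15.6%. An unadjusted limma p below 0.05 was found for 7 of 24, against 9.48%. At 7 km against 3 km 15 were higher and 9 lower, with a median of 0.04, where 49.6% of all tested probes were higher. There 3 of 24 had an unadjusted limma p below 0.05, against 2.7%. The list was written with earlier results of these data known, and many of its members are glycolytic enzymes.

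With 9 arrays, the target genes with the smallest p-values differed in both directions without passing. Pfkl, the liver-type phosphofructokinase of glycolysis, was 7.60, 7.49 and 7.39 at sea level, 7.75, 7.82 and 7.77 at 3 km, and 7.76, 7.73 and 7.77 at 7 km, and both altitudes lay above sea level. Its differences from sea level were 0.26 ± 0.052 at 7 km (limma adjusted p = 0.166) and 0.29 ± 0.052 at 3 km (limma adjusted p = 0.181), and 0.16 ± 0.029 and 0.18 ± 0.029 on 8 arrays. Groups without overlap, with the altitude higher, were found for 12.2% of all tested probes at 7 km and 8.8% at 3 km. Tf, which encodes transferrin and in brain is made largely by oligodendrocytes, was 12.76, 12.86 and 13.05 at sea level, 12.51, 12.70 and 12.51 at 3 km, and 11.60, 12.18 and 12.18 at 7 km. Its difference was -0.90 ± 0.16 at 7 km against sea level (limma adjusted p = 0.14) and -0.59 ± 0.16 at 7 km against 3 km (limma adjusted p = 1). For Tf on 8 arrays these were -0.82 ± 0.19 and -0.58 ± 0.17. The oligodendrocyte markers Mbp, Mog, Cnp and Mal were lower on every 7 km array than on any sea level array, and Mag was not detected. A gap with 7 km lower was found for 12.5% of all tested probes. The part of these markers in the level of Tf was not tested. Cxcl12, a chemokine of endothelium and meninges, was 8.39, 8.30 and 8.32 at sea level, 7.91, 8.04 and 8.05 at 3 km, and 8.23, 8.06 and 8.18 at 7 km. It was lowest at 3 km, with differences of -0.34 ± 0.057 at 3 km against sea level (limma adjusted p = 0.145) and 0.16 ± 0.057 at 7 km against 3 km (limma adjusted p = 1). For Cxcl12 on 8 arrays these were -0.31 ± 0.0565 and 0.14 ± 0.0505. On 8 arrays the smallest target p at both altitudes belonged to Gpi. It had 0.77 ± 0.11 at 7 km (limma adjusted p = 0.0781) and 0.80 ± 0.11 at 3 km (limma adjusted p = 0.0888). With 9 arrays Gpi had 0.32 ± 0.31 and 0.36 ± 0.31.

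**Figure D5:**
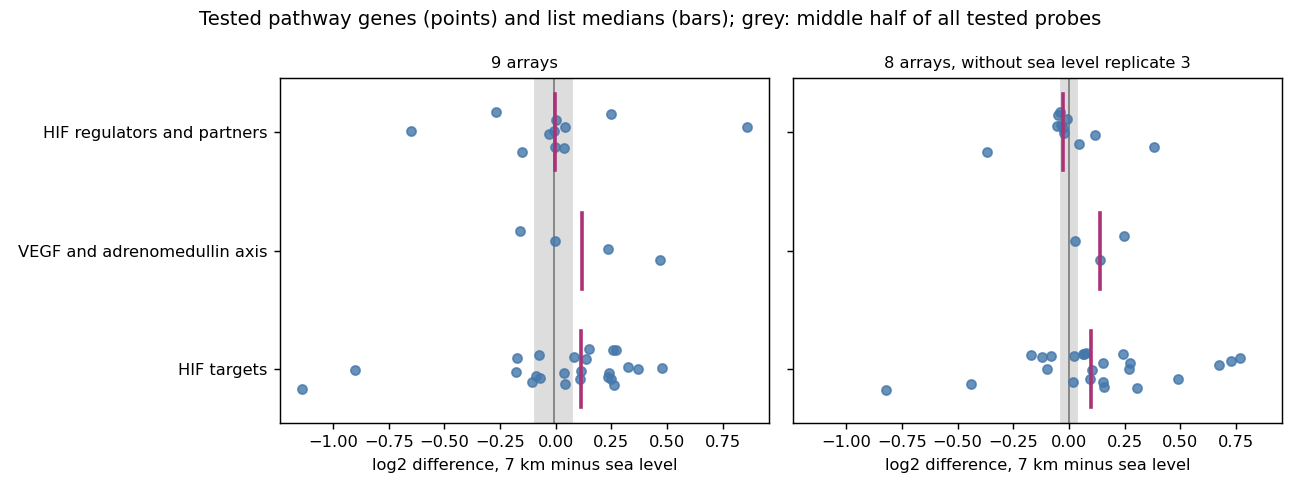
Log2 difference at 7 km minus sea level (x axis) of each tested gene (points) in the 3 pathway lists (rows), with all 9 arrays and with 8. Bars are list medians, the grey band runs from the lower to the upper quartile of all tested probes and the grey line is their median. The median of HIF targets was 0.11 with 9 arrays and 0.10 with 8.

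The named genes most like each tested member over the 9 arrays were ranked by Pearson's r of the log2 values. For Hif1a these were Fstl1 (0.950, and 0.906 over the 8 arrays without sea level replicate 3), Copb1 (0.928 and 0.860) and Dag1 (0.926 and 0.849). For Vegfa they were Clk1 (0.921 and 0.897), Vrk3 (0.853 and 0.838) and Hoxc9 (0.851 and 0.838). For Egln2 they were Cdk9 (0.936 and 0.914), Or4c12 (0.933 and 0.945) and Mapk8ip1 (0.926 and 0.869), and for Vhl Slc8b1 (0.955 and 0.876), Sptssa (0.950 and 0.847) and Calb2 (0.943 and 0.873). Ranked over the 8 arrays the leading genes were others: Dnajc10 for Hif1a (0.955 over 8 arrays and -0.081 over 9), Dnajb1 for Egln2 (0.965 and -0.165), Amigo2 for Vhl (0.917 and -0.048) and Mapk8ip3 for Vegfa (0.937 and -0.123). The next were Ift57 (0.945 over 8 arrays and -0.045 over 9) and Smim14 (0.929 and 0.923) for Hif1a, and B2m (0.953 and -0.443) and Utp23 (0.948 and -0.565) for Egln2. For Vhl they were Hspb9 (0.908 and -0.674) and Tspan33 (0.907 and 0.891), and for Vegfa Morn4 (0.931 and 0.692) and Rassf1 (0.923 and 0.796). These values describe a search over all tested named probes, which share the same arrays and normalization.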

How the data were processed

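Total RNA of rat brain cortex was extracted with Trizol, cleaned on a column with DNase I and labelled as biotinylated cRNA, per the labels' protocols. The authors deposited 1 signal (intensity, neither background-subtracted nor normalized, from its values) and 1 detection p-value per probe and array, and a value table (intensity, background-subtracted and scaled by an unstated method). The software that made them is not given in the sources used here. Signals were corrected and quantile normalized with neqc of limma 3.58.1 in R 4.3.3 (offset 16, negative controls inferred from detection p-values) and taken to log2. A probe entered the model if at least 3 arrays had a detection p-value under 0.05; 1 limma model held all arrays, with a mean per group, 3 contrasts, eBayes and Benjamini-Hochberg adjustment over all tested probes; the model was tested on simulated data. Of all probes, 13353 carry 1 gene symbol, 0 several and 9170 none, and 13313 matched RefSeq. A fold against a group with no array above background is a bound against the lowest detected level. Beside the members, the 2 genes per list and contrast with the smallest p are named, with the 3 named genes most like each tested member. The members, lists and rules were chosen with earlier results of these data known. The alternatives were other backgrounds, scalings, filters and variance models, the replicate block, and leaving out arrays; those that leave out sea level replicate 3 together with another change were chosen after seeing the data. Precision is limited by the 9 arrays.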

Additional observations from a re-analysis of the deposited data

How the results depend on the processing

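No member passed in any of the 3 comparisons under any alternative that could be run, including the replicate block, where the counts of members and of list genes that passed were 0 in each comparison, and leaving out each array, where both counts ranged from 0 to 0. The count over all probes at 7 km was 8 and ranged from 0 to 176; it was 20 without sea level replicate 3 and 0 with the replicate block, median scaling, the stricter detection filter or only the 6 arrays compared. It was also 0 without any 1 of 7 km replicates 1, 2 and 3, 3 km replicates 1 and 2 and sea level replicate 2, and 2 without 3 km replicate 3. Same-numbered replicates had correlations of deviations from their group means of 0.013 to 0.305. Replicates of different number were not compared, so these values cannot settle whether the numbers mark pairs. The main model took the arrays as unpaired. At 3 km the count over all probes was 0 and ranged from 0 to 120, and between the altitudes from 0 to 4. The number of list genes that passed at 7 km was 0, and became 1 of 39 in the authors' value table (13 of 6426 over all probes), 6 of 39 with array weights (176 of 6656), 2 of 38 without background correction on 8 arrays (58 of 6499) and 1 of 38 in the authors' table on 8 arrays (34 of 6274); at 3 km it became 4 of 39 with array weights (120 of 6656). These genes, named after their values were seen, were Gpi, Ldha, Pfkl, Ramp2, Slc16a3 and Tf at 7 km and Cxcl12, Gpi, Pfkl and Ramp2 at 3 km with array weights, and Slc16a3 and Pfkl in the others. Over the alternatives the sign of a member difference changed in 23 cases and kept in 235. Of the 23, 4 came with median scaling of 9 arrays, where the median difference of the tested probes was -0.64 at 7 km and -0.55 at 3 km. Measured from the median of its comparison, Vegfa at 7 km kept its sign (0.27). Egln2 at 7 km (-0.30) and 3 km (-0.06) and Vhl at 7 km against 3 km (-0.18) did not. Hif1a at 7 km against 3 km had 0.0199 without 7 km replicate 2 and 0.0097 without 3 km replicate 3 (range -0.0259 to 0.0199 over single arrays left out). Median scaling with 9 arrays gave -0.94 and -0.61 for Egln2 at 7 km and 3 km, -0.24 for Vhl at 7 km against 3 km and -0.38 for Vegfa at 7 km; with 8 arrays it gave -0.0617 for Egln2 at 7 km, 0.13 for Vhl at 3 km, -0.24 for Vhl between the altitudes and 0.0308 for Vegfa at 3 km. The authors' value table gave 0.0614 for Vhl at 7 km and 0.19 for Vegfa at 3 km, and on 8 arrays 0.12 for Vhl at 7 km, 0.0425 for Vhl at 3 km and 0.36 for Vegfa at 3 km. Array weights gave 0.11 and 0.0509 for Vhl at 7 km and 3 km and 0.0078 for Vegfa at 3 km. No background correction on 8 arrays gave 0.082 for Vhl at 7 km and 0.11 for Vegfa at 3 km. Leaving out single arrays gave -0.183 to 0.089 for Vhl at 7 km, with 0.089 without sea level replicate 3, and -0.0293 to 0.0164 for Vegfa at 3 km, with 0.0164 without sea level replicate 3 and 0.0023 without 3 km replicate 2. The cause of these changes was not tested. Hif1a and Vegfa were not tested with the stricter detection filter, which left 2475 probes. Epas1, Hif3a, Arnt and Adm were fitted only without the filter on dim probes, and did not pass there. Signal over background limits what can be said of these genes.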
